A study of Mus musculus with 6 samples.

Results

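Matrix metalloproteinases (MMPs) and the tissue inhibitors of metalloproteinases (TIMPs) were examined in MS-5 cells, a mouse stromal line used to support haematopoiesis, cultured alone or with human acute myeloid leukaemia (AML) cells. The genes were listed by name, with earlier results of these data known, and no measured value enters the list. They are Mmp2, Mmp3, Mmp9, Mmp10, Mmp13, Mmp14, Mmp19, Timp1, Timp2 and Timp3, which are 10 of the 35968 genes with a transcript in the data. The RNA-seq data hold 3 libraries of MS-5 cells kept alone (MS-5 only, MO1 to MO3) and 3 of MS-5 cells that had shared 24 hr of culture with SKM-1 (co-culture, MC1 to MC3). Both cell types of a co-culture were separated before RNA was extracted. SKM-1 is a human AML line, plated at 4 AML cells per stromal cell and 750000 AML cells per ml onto confluent MS-5 cells. Both groups were grown in RPMI medium with serum, and no gene was altered in either. Each group stands for 1 stromal line and each co-culture for 1 AML line, and the labels do not say whether the libraries of a group came from separate cultures, so that p-values measure the spread between these libraries, which may be technical.

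MMPs are zinc-dependent proteases, secreted or held at the cell surface, that cut collagens and other proteins of the extracellular matrix, and that also release growth factors and chemokines bound to it. Most are made as inactive proenzymes. TIMPs bind the active site of MMPs and block them, so that proteolysis depends on the levels of both families and on activation, which RNA does not measure. In bone marrow, stromal MMPs and TIMPs take part in the turnover of the matrix that blood cells adhere to.

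The data are values the authors estimated with kallisto for each transcript, summed here per gene. Levels of 1 gene across libraries are given as CPM (counts scaled to a common library size with edgeR's TMM factors), and levels of different genes as TPM (transcripts scaled to a common total), which corrects for length. Total estimated counts were between 23978881 and 27182453 in MS-5 only and between 26258451 and 35694987 in co-culture. MO2 and MC3 stood apart from the other 4 libraries. Each had a count in 65170 or more transcripts, against 57350 or fewer elsewhere, and mitochondrial genes held 6.03% of the counts in MO2 and 5.89% in MC3 against 10.5% to 13.1% elsewhere. No label sets them apart, so that marking them rests on values of these same data. What set them apart was not tested. For the 8 genes tested, the fit of all 6 libraries is given beside 1 with a term for MO2 and MC3 or 1 without them. All 12 stromal markers, such as Col1a1, Vim and Pdgfrb, passed the filter on low counts and none passed the test. With a term for MO2 and MC3 the test called 3 of them higher in co-culture, Pdgfra (log2 fold change 0.69, edgeR adjusted p = 0.0124), Fn1 (0.43, 0.0294) and Pdgfrb (0.28, 0.0499). That fit called 30.2% of all genes tested, and 1835 of 13221 were called higher in it. Pdgfra and Pdgfrb also did not overlap between groups, where this held for 21.2% of all genes tested. The summed level of the 12 was 13530 to 15096 CPM in MS-5 only and 15275 to 17781 CPM in co-culture. The 16 leukocyte markers summed to 42.4 to 49.3 CPM in MS-5 only, and to 95.2, 379 and 93.9 CPM in MC1, MC2 and MC3. In MS-5 only, Lcp1, Itgal and Cd53 had the highest means (27.8, 10.5 and 4.61 CPM), and Mpo was next at 0.535 CPM. Lcp1 was higher in every co-culture library (log2 fold change 1.17, edgeR adjusted p = 0.263, and 0.0927 with the term). Cd53 overlapped between groups (log2 fold change -0.11, edgeR adjusted p = 0.964). Of the 16, 12 passed the filter and 7 were higher in co-culture by the test, where this held for 3.71% of all genes tested. With the term the number was 10, where 1835 of 13221 genes were called higher. The 7 (Ptprc, Laptm5, Coro1a, Spi1, Rac2, Vav1 and Irf8) had at most 17 counts in any MS-5 only library. None of them reached the filter in every MS-5 only library. They passed it through the co-culture libraries, so that this count is a description. Itgal was lower in every co-culture library, with a log2 fold change of -0.73 that did not pass (edgeR adjusted p = 0.196) but did with the term (edgeR adjusted p = 0.0327). Of the 4 under the filter, Myb had 1, 4 and 2 counts in MO1, MO2 and MO3 against 10, 109 and 31 in MC1, MC2 and MC3, and Tyrobp, Cd34 and Cd33 had at most 1, 9 and 14 counts in any library, with groups that overlapped. Whether their counts come from the AML cells was not tested. In bulk RNA, fewer cells of a type and less RNA per cell cannot be told apart.

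No MMP or TIMP gene passed the main test between co-culture and MS-5 only. Genes were compared by edgeR's quasi-likelihood test, with an adjusted p-value under 0.1 as the threshold over the 13221 genes that passed edgeR's filter. Of the 10 genes, 8 passed the filter and 0 were called, where 4.38% of all genes tested were called (3.71% higher and 0.666% lower in co-culture). At an unadjusted p under 0.05 the number was again 0, where 14.3% of all genes passed, and DESeq2's Wald test called 0 of the 8. Limma on log2(TPM + 0.5) and the effective length offset in edgeR each called 1 of the 8, Timp3 (adjusted p = 0.0598 and 0.0800). The lowest adjusted p among the 8 was 0.393, for Timp3. The log2 fold change was positive for 5 genes and negative for 3, with a median of 0.17, beside a median of -0.02 over all genes tested. The CPM values of the groups did not overlap for 2 of the 8 genes, Mmp2 and Timp3, where this held for 21.2% of all genes tested. In TPM the groups overlapped for Mmp2. Timp3 reached the CPM of the filter in 1 MS-5 only library and in 3 co-culture libraries, so that it was tested because of the group in which it was higher.

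**Figure D1:**
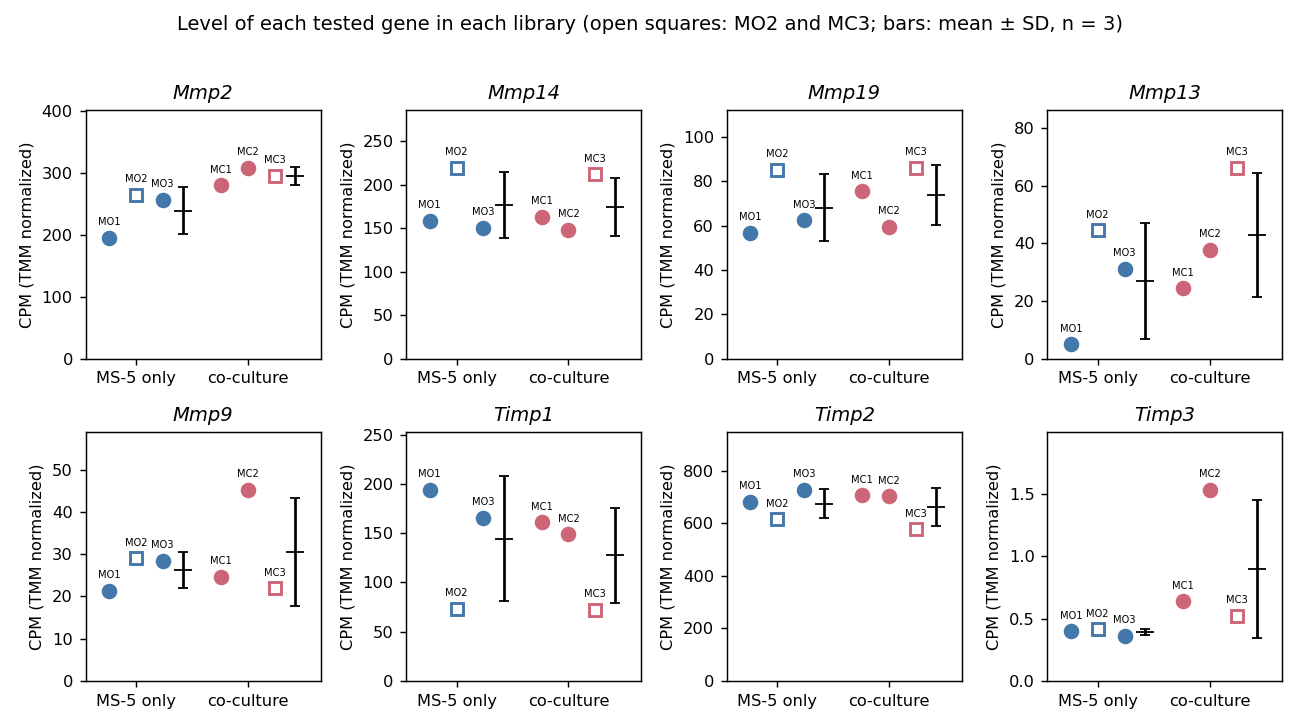
CPM (TMM normalized, each vertical axis from 0) of the 8 tested genes in each library, with MS-5 only in blue, co-culture in red, the mean and SD of each group as bars (n = 3) and MO2 and MC3 as open squares. The groups separate in CPM for Mmp2 and Timp3 only, of which Mmp2 overlaps in TPM. In CPM MO2 and MC3 are the 2 highest libraries for Mmp13, Mmp14 and Mmp19 and the 2 lowest for Timp1 and Timp2, of which Timp2 has them as the 2 highest in TPM.

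Levels of the 10 genes spanned a wide range, with Timp2 and Timp1 above all 7 proteases. Over all 6 libraries Timp2 had the highest mean level, 319 ± 32.9 TPM (SD, n = 6), and Timp1 was next at 237 ± 51.5 TPM. The gelatinase Mmp2 followed at 120 ± 39.9 TPM, and Mmp14, the membrane-bound protease that activates pro-MMP2 at the cell surface, at 96.8 ± 44.1 TPM. Mmp19 had 34.9 ± 15.1 TPM, the collagenase Mmp13 19.2 ± 15.2 TPM and the gelatinase Mmp9 11.8 ± 3.64 TPM. Timp3 had 1.10 ± 1.15 TPM and the stromelysin Mmp3 0.094 ± 0.072 TPM, and the stromelysin Mmp10 was at 0 in every library. Each gene in this order lay above the next in 6 of 6 libraries, apart from Mmp13 over Mmp9, which held in 5 of 6. Across libraries, however, the ranges of neighbours overlapped for Mmp2 (72.4 to 178 TPM) and Mmp14 (65.2 to 156 TPM), for Timp2 and Timp1, for Mmp19 and Mmp13, for Mmp13 and Mmp9, and for Timp3 and Mmp3.

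Mmp2, or gelatinase A, digests denatured collagen and type IV collagen, and lies on chromosome 8 (92827291 to 92853420, GRCm38). Its level was 196, 265 and 257 CPM in MO1, MO2 and MO3, and 281, 309 and 296 CPM in MC1, MC2 and MC3. All 3 co-culture values exceeded all 3 MS-5 only values, with means of 295 ± 14.4 CPM and 239 ± 38.2 CPM (SD, n = 3 each), and MO1 was the lowest. In TPM the groups overlapped, with MO2 at 157 TPM above MC1 and MC2 at 105 and 111 TPM. Its log2 fold change was 0.30 (SE 0.17), which did not pass the test (edgeR adjusted p = 0.507). With a term for MO2 and MC3 in the same test the log2 fold change was 0.31 (SE 0.12, edgeR adjusted p = 0.126), the lowest adjusted p of the 8 genes in that fit, which called 30.2% of all genes tested. Between MO2 and MC3 alone the log2 ratio was 0.16, and between the means of the other libraries 0.38. The protein-coding transcript Mmp2-201 held 94.0% to 99.3% of the gene's TPM in each library. The retained-intron transcript Mmp2-204 had the most estimated counts in MO2 and MC3, with 57.9 and 106, against 48.5 or fewer elsewhere.

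Mmp14, known as MT1-MMP, lies on chromosome 14 (54431612 to 54445364). It was measured at 158, 220 and 151 CPM in MS-5 only and at 163, 148 and 212 CPM in co-culture. The groups covered the same range, and the 2 highest values were those of MO2 and MC3. The log2 fold change was -0.015 (SE 0.22, edgeR adjusted p = 0.993). With the term for MO2 and MC3 it was -0.010 and the SE was 0.07 (edgeR adjusted p = 0.935). Its retained-intron transcript Mmp14-205 had 42.2 and 56.5 estimated counts in MO2 and MC3, and between 2 and 8 in the other 4 libraries. Of the other 2 retained-intron transcripts, Mmp14-204 was also highest in MC3 (19.4), but Mmp14-207 was highest in MC2 (36.2, against 21.3 in MO2 and 19.3 in MC3).

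Mmp19, a protease of basement membrane proteins, lies on chromosome 10 (128790910 to 128800824). Its values followed the same pattern, with 56.8, 85.1 and 62.4 CPM in MS-5 only and 75.5, 59.5 and 86.2 CPM in co-culture. MO2 and MC3 again were the 2 highest. Its log2 fold change was 0.11 (SE 0.21, edgeR adjusted p = 0.917), 0.13 (SE 0.11) with the term and 0.20 (SE 0.15) without MO2 and MC3. Part of its count could be shared with other genes. In Mmp19-201, which held 45.5% to 54.5% of the gene's TPM, 26.9% of the 31-base words (kallisto's default word length) also occur in transcripts of other genes, most of them in Tmem198b, a neighbour annotated on the opposite strand. In Mmp19-203, the other main transcript, the share was 2.09%.

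Mmp9, or gelatinase B, is known from neutrophils and macrophages as well as stroma, and lies on chromosome 2 (164940780 to 164955850). Its level was 21.3, 29.1 and 28.5 CPM in MS-5 only, and 24.7, 45.3 and 21.9 CPM in co-culture. MC2 was the highest library and the other 2 co-culture libraries lay within the range of MS-5 only. The log2 fold change was 0.22 (SE 0.30, edgeR adjusted p = 0.862), and it was -0.18 without MC2. It was 0.19 (SE 0.29, edgeR adjusted p = 0.683) with the term for MO2 and MC3 and 0.51 (SE 0.32, edgeR adjusted p = 0.369) without those libraries. MC2, where Mmp9 was 1.95-fold of the mean of MC1 and MC3, was also the library in which the leukocyte markers were 4.01-fold of that mean, and their part in the Mmp9 value was not tested.

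Mmp13, a collagenase that cuts fibrillar collagen, and the stromelysins Mmp3 and Mmp10, which cut proteoglycans and activate other proMMPs, are part of a cluster of 10 Mmp genes on chromosome 9 (7272514 to 7699585, GRCm38) that spans 427 kb. Of the 10, only Mmp13 and Mmp27 passed the filter on low counts. The 3 genes are set side by side here because their promoters share a sequence while their levels lie far apart. The 110 bases before each RefSeq start (GRCm38.p6, plus strand) are shown, at chr9:7272404-7272513 for Mmp13, chr9:7445712-7445821 for Mmp3 and chr9:7502232-7502341 for Mmp10, with capitals marking TGAGTCA or its reverse complement TGACTCA, letters known as a binding site of AP-1.
Mmp13: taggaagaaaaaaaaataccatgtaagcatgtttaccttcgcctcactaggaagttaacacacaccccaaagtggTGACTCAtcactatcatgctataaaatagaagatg
Mmp3: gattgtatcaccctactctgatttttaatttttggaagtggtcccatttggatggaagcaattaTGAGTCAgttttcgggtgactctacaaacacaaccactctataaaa
Mmp10: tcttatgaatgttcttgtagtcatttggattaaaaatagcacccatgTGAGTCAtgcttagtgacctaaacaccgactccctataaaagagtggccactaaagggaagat

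The match began 35 bases before the start in Mmp13, 46 in Mmp3 and 63 in Mmp10. Promoter windows were present for 7 of the 10 genes (Mmp3, Mmp10, Mmp13, Mmp14, Timp1, Timp2 and Timp3), and the other 4 did not hold these letters on either strand. Of all 32851 windows, from 250 bases before to 50 bases after a start, 1709 (5.20%) held them. A match describes these letters and not binding.

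Estimated counts of Mmp13 were 124, 1399 and 687 in MO1, MO2 and MO3, and 802, 911 and 2277 in MC1, MC2 and MC3. These corresponded to 4.95, 44.5 and 31.1 CPM without AML cells and to 24.5, 37.8 and 66.3 CPM with them. The groups overlapped, and the highest library was 13.4-fold of the lowest, the widest range of the 8 genes tested. MO1 was the lowest of all and MC3 and MO2 the highest. The log2 fold change of 0.67 (SE 0.74) did not pass the test (edgeR adjusted p = 0.806), and leaving out 1 library at a time moved it between 0.21 (without MC3, and 0.22 without MO1) and 1.25 (without MO2). With the term for MO2 and MC3 it was 0.72 (SE 0.57, edgeR adjusted p = 0.417), and without them 0.81 (SE 0.79, edgeR adjusted p = 0.565). Mmp13 has 1 annotated transcript, with no 31-base word in another gene.

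Counts of Mmp3 were 8, 2 and 1 in MO1, MO2 and MO3 against 7, 1 and 3 in MC1, MC2 and MC3, and the gene did not pass the filter. The groups overlapped, and with no filter on low counts the test did not call it either. Of its 31-base words 14.6% occur in other genes, 202 of them in Mmp10, so that part of such a small count cannot be placed. Mmp10 had 0 counts in all 6 libraries. A count of 0 allows up to 3 counts in a library, or 0.0840 to 0.125 CPM of the library's total, for counting error only.

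**Figure D2:**
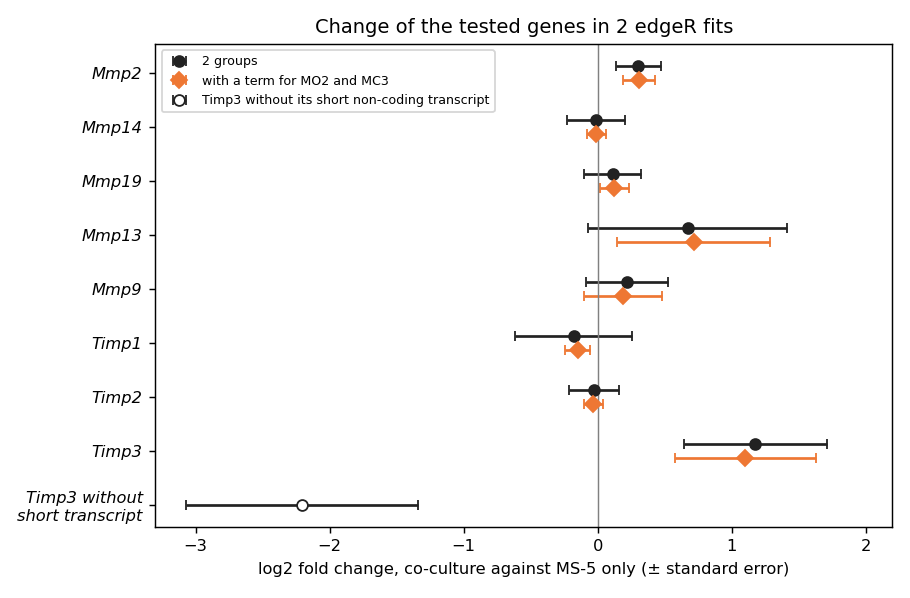
Log2 fold change of co-culture against MS-5 only, with its standard error, for the 8 tested genes in the comparison of the 2 groups (black) and with a term for MO2 and MC3 (orange), and for Timp3 with transcript Timp3-203 left out (open circle). The standard error of Mmp14 is 0.22 in the first and 0.07 in the second, and the value of Timp3 moves from 1.18 to -2.21 without Timp3-203.

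Among the inhibitors, Timp1, a secreted TIMP that also acts on cell growth and is induced by many cytokines, lies on chromosome X (20870166 to 20874735), within the gene Syn1 on the opposite strand. Its level was 194, 72.9 and 165 CPM in MS-5 only and 161, 149 and 72.1 CPM in co-culture. MO2 and MC3 were the 2 lowest libraries, well under the other 4, so that the groups overlapped. Its log2 fold change was -0.18 (SE 0.44, edgeR adjusted p = 0.945). With the term for MO2 and MC3 it was -0.15 and the SE was 0.09 (edgeR adjusted p = 0.288). The log2 ratio was -0.02 between MC3 and MO2, and -0.22 between the means of the other libraries. Its transcripts Timp1-201 and Timp1-202 had nearly equal levels, with Timp1-201 at 49.7% to 54.7% of the gene's TPM.

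Timp2, which inhibits MMPs and is also needed by MT1-MMP to activate pro-MMP2, lies on chromosome 11 (118301069 to 118355740, minus strand). It had 681, 616 and 729 CPM in MS-5 only and 707, 703 and 577 CPM in co-culture. The groups overlapped, MO2 and MC3 were the 2 lowest, and the highest library was 1.26-fold of the lowest, the narrowest range of the 8 genes tested. The order turned in TPM, where MO2 and MC3 were the 2 highest, at 369 and 347 TPM against 280 to 314 TPM elsewhere. The log2 fold change was -0.03 (SE 0.18, edgeR adjusted p = 0.985), and with the term for MO2 and MC3 it was -0.03 (SE 0.07, edgeR adjusted p = 0.784). The full-length transcript Timp2-201 held 74.5% and 74.8% of the gene's TPM in MO2 and MC3, and 59.7% to 68.1% in the other 4 libraries, with the short coding transcript Timp2-202 holding the rest.

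On the CPM scale MO2 and MC3 were the 2 highest libraries for 3 of the 8 genes, Mmp13, Mmp14 and Mmp19, where this held for 25.4% of all genes tested. They were the 2 lowest for 2 genes, Timp1 and Timp2, where this held for 26.3% of all genes. Neither share was tested against its background. In TPM they were again the 2 highest for Mmp13, Mmp14 and Mmp19 and the 2 lowest for Timp1, but they were the 2 highest for Timp2, and also for Mmp2. When levels were summed over each family, the same 2 libraries had the lowest ratios of inhibitors to proteases. The 7 MMP genes together had 176, 412 and 208 TPM in MO1, MO2 and MO3 and 228, 230 and 442 TPM in MC1, MC2 and MC3. The 3 TIMP genes had 627, 550 and 564 TPM in MS-5 only and 560, 510 and 529 TPM in co-culture. The ratio of summed TIMP to summed MMP level was 3.56, 1.33 and 2.71 in MO1, MO2 and MO3, against 2.45, 2.22 and 1.20 in MC1, MC2 and MC3. Its group means were 2.54 ± 1.12 and 1.96 ± 0.667 (SD, n = 3 each), and the groups overlapped. Summed TIMP levels exceeded summed MMP levels in every library, least in MC3 and MO2. This ratio compares RNA per length and not protein or activity.

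**Figure D3:**
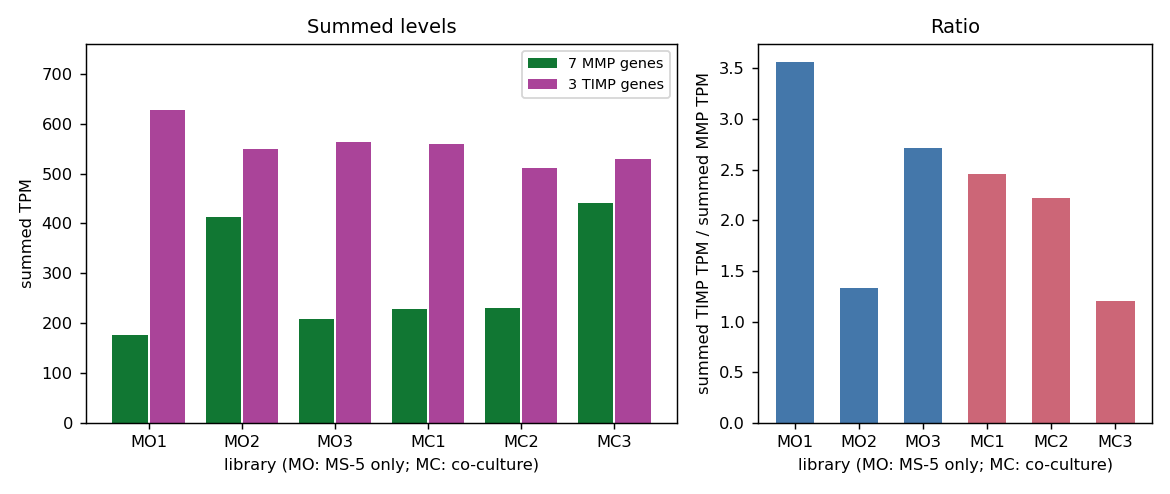
Summed TPM of the 7 MMP genes (green) and the 3 TIMP genes (purple) in each library at left, and their ratio at right, with MS-5 only in blue and co-culture in red. MO2 and MC3 have the highest MMP sums, 412 and 442 TPM, and the lowest ratios, 1.33 and 1.20.

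Timp3, the TIMP that binds to the matrix and also inhibits ADAM proteases, was the only gene of the 10 whose co-culture values rested on a non-coding transcript. It lies on chromosome 10 (86300372 to 86349506), within the gene Syn3 on the opposite strand. Summed over its transcripts it had 0.399, 0.414 and 0.363 CPM in MS-5 only and 0.641, 1.54 and 0.524 CPM in co-culture. The groups did not overlap, but the estimated counts behind these values were only 10, 13 and 8 against 21, 37 and 18. It reached the CPM of edgeR's filter in 1 MS-5 only library and in all 3 co-culture libraries, so that it was tested because of the group in which it was higher. The log2 fold change of 1.18 (SE 0.53) did not pass the test (edgeR adjusted p = 0.393), and it was 0.56 without MC2. It was 1.10 (SE 0.53, edgeR adjusted p = 0.187) with the term for MO2 and MC3 and 1.51 (SE 0.63, edgeR adjusted p = 0.210) without those libraries.

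The counts of co-culture came from Timp3-203, a spliced non-coding transcript of 674 bases. Timp3-203 had 0, 1 and 0 estimated counts in MO1, MO2 and MO3 and 17, 34 and 18 in MC1, MC2 and MC3. The other 3 Timp3 transcripts together had 10.2, 12.2 and 8 without AML cells and 4, 3 and 0 with them. The coding transcript Timp3-201 alone had 9.56, 11.2 and 8 against 4, 3 and 0. Counts thus moved in opposite directions within the gene, and with Timp3-203 left out, a choice made after its values were seen, the log2 fold change of Timp3 was -2.21 (SE 0.87, edgeR adjusted p = 0.314). Neither direction passed the test, and no statement on the coding transcript can rest on so few counts.

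**Figure D4:**
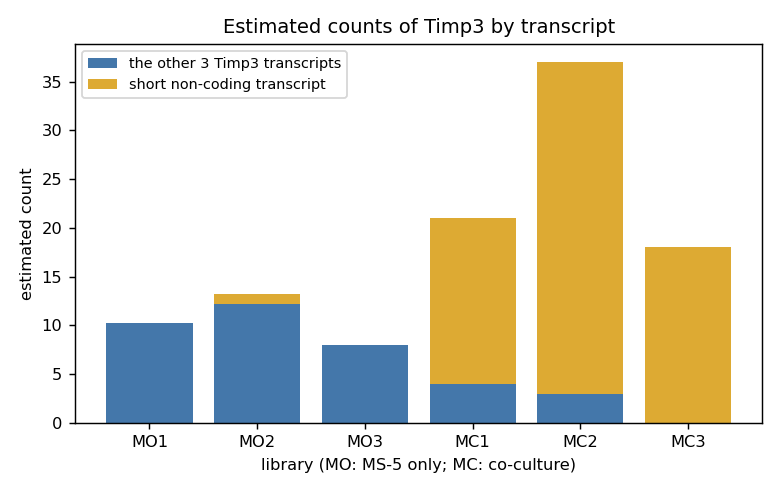
Estimated counts of Timp3 in each library, as stacked bars of Timp3-203 (yellow) and the other 3 Timp3 transcripts (blue). Timp3-203 holds 1 count over the 3 MS-5 only libraries and 17, 34 and 18 counts in co-culture, where the other transcripts hold 4, 3 and 0.

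Because Timp3-203 is short, its counts weigh more in values corrected for length. On log2(TPM + 0.5), limma gave Timp3 a difference of 1.78 (SE 0.34, limma adjusted p = 0.0598), which passed the threshold, and edgeR with an offset for effective length gave a log2 fold change of 3.45 (SE 0.68, edgeR adjusted p = 0.0800). Both call Timp3 higher in co-culture, and both take the value from Timp3-203, which held 97.6%, 99.1% and 100% of the gene's TPM in MC1, MC2 and MC3 against 0%, 42.8% and 0% in MS-5 only. They are therefore calls on the non-coding transcript.

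The part of Timp3-203 that its coding partner lacks is its second exon, at chr10:86326580-86326834 (GRCm38, plus strand, 255 bases), within an intron of Timp3-201. It is shown because it tells the transcript that was higher in co-culture from the coding one, with capitals marking a run of 69 bases made of 23 GAT or GAC triplets (11 GAT and 12 GAC).
Timp3-203 second exon: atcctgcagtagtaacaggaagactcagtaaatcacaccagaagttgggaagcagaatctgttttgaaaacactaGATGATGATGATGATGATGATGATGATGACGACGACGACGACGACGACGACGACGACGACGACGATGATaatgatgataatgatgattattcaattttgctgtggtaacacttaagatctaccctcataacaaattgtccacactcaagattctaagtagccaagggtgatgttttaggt

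The deposited values do not say where along the transcript its reads lay. Of the 31-base words of Timp3-203, 0.311% occur in another mouse gene, and of those of Timp3-201, 36.9%, in 1067 genes. The last exon of Timp3-201 (86345705 to 86349506) overlaps an exon of Syn3-203 (86347774 to 86351640) on the opposite strand. Words were compared on either strand, so that those of the overlap count as shared. The index held mouse transcripts only, and a comparison with human transcripts was not made here. Timp3-203 was highest in MC2, at 2.71-fold of the mean CPM of MC1 and MC3, and the leukocyte markers were 4.01-fold there. Whether reads of the AML cells or of other mouse transcripts took part in its counts was not tested.

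Genes that act beside these families were described from lists chosen by function. Where a gene below passed with the term for MO2 and MC3, that fit called 30.2% of all genes tested. The fit without those 2 libraries called 1702 of 13047 genes. Of 17 other MMP genes and Timp4, 6 passed the filter and 0 were called, with a median log2 fold change of 0.06. The stromelysin-like Mmp11 was the most abundant of them, at 116 ± 43.0 CPM in MS-5 only and 140 ± 49.9 CPM in co-culture (log2 fold change 0.27, edgeR adjusted p = 0.846). Mmp23 had 36.1 ± 6.03 and 36.1 ± 3.35 CPM, Mmp28 15.8 ± 3.00 and 17.1 ± 2.31 CPM, and Mmp27 0.389 ± 0.199 and 0.433 ± 0.146 CPM (SD, n = 3 each). None of the 3 passed the test, and 3 genes of the list had no count in any library.

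Of 15 genes that activate, inhibit or clear MMPs, 11 passed the filter and 0 were called, with a median log2 fold change of 0.22. Bsg, or basigin, a surface protein known to induce MMPs in neighbouring fibroblasts, had 811, 611 and 934 CPM in MS-5 only and 1372, 1213 and 924 CPM in co-culture. Here MO2 and MC3 were the lowest of their groups, and the log2 fold change of 0.57 (SE 0.26, edgeR adjusted p = 0.393) passed with the term for MO2 and MC3 (edgeR adjusted p = 0.0156), without those 2 libraries (0.0825) and by limma on log2(TPM + 0.1) (0.0817), but not by limma with pseudocounts of 0.5 (0.112) or 1 (0.144). Furin, a proprotein convertase that activates pro-MT1-MMP, had 102, 151 and 116 CPM in MS-5 only and 146, 141 and 147 CPM in co-culture, where MO2 was the highest of all. Its log2 fold change of 0.24 (SE 0.17, edgeR adjusted p = 0.641) passed without MO2 and MC3 (0.42, edgeR adjusted p = 0.0895). Lrp1, the receptor that takes up MMPs and their complexes, and Pcolce, which enhances procollagen processing, had log2 fold changes of 0.22 and 0.08, and neither passed. Its relative Pcolce2, named after its values were seen, had a log2 fold change of -0.43 (SE 0.26, edgeR adjusted p = 0.542), and of -0.43 with the term (SE 0.11, edgeR adjusted p = 0.0384).

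Of 26 ADAM and ADAMTS genes, which shed surface proteins and process matrix proteins and of which several are targets of TIMP3, 16 passed the filter and 0 were called, with a median log2 fold change of 0.14. The 4 with the highest mean TPM, Adam9, Adam10, Adam15 and Adamts2, had log2 fold changes of 0.18, 0.04, 0.16 and 0.40. Adam8, known from leukocytes and named here after its values were seen, had 15.5 ± 5.65 CPM in MS-5 only and 7.42 ± 1.69 CPM in co-culture (SD, n = 3 each). Its log2 fold change of -1.06 (SE 0.31) did not pass (edgeR adjusted p = 0.170), but did with the term for MO2 and MC3 (edgeR adjusted p = 0.0564) and by DESeq2's Wald test (adjusted p = 0.0504). Adamts7, also named after its values were seen, had a log2 fold change of 0.58 (SE 0.63, edgeR adjusted p = 0.798), and of 0.71 with the term (SE 0.16, edgeR adjusted p = 0.0291) and 0.91 without MO2 and MC3 (SE 0.21, edgeR adjusted p = 0.0842).

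Of 11 cathepsins, lysosomal proteases that can also act outside the cell, 8 passed the filter and 0 were called, with a median log2 fold change of 0.12. Ctsb had 819 ± 91.7 CPM in MS-5 only and 1043 ± 64.7 CPM in co-culture with no overlap (log2 fold change 0.35, edgeR adjusted p = 0.507, and 0.0690 with the term). Ctsd, Ctsl and Ctsz had log2 fold changes of 0.11, 0.13 and 0.12 and did not pass. A further 2 genes, named after their values were seen, also did not overlap between groups, which makes 3 of the 8 tested cathepsins, beside 21.2% of all genes tested. The collagen-degrading Ctsk had 10.9 ± 2.60 CPM in MS-5 only and 6.19 ± 0.503 CPM in co-culture (log2 fold change -0.82, edgeR adjusted p = 0.148), and passed with the term for MO2 and MC3 (edgeR adjusted p = 0.0410) and by DESeq2's Wald test (adjusted p = 0.0353). Ctsh had 2.59 ± 0.618 and 7.67 ± 4.34 CPM (log2 fold change 1.56, edgeR adjusted p = 0.148), and was highest in MC2, at 12.7 CPM. It passed with the term (edgeR adjusted p = 0.0535), without MO2 and MC3 (edgeR adjusted p = 0.0913) and by DESeq2's Wald test (adjusted p = 0.0177), and without MC2 its log2 fold change was 1.00 (edgeR adjusted p = 0.320). At an unadjusted p under 0.05 the number of genes was 0 of 6 for the other MMPs, 0 of 11 for the activation genes, 1 of 16 for the ADAM genes (Adam8) and 2 of 8 for the cathepsins (Ctsh and Ctsk), beside 14.3% of all genes tested.

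**Figure D5:**
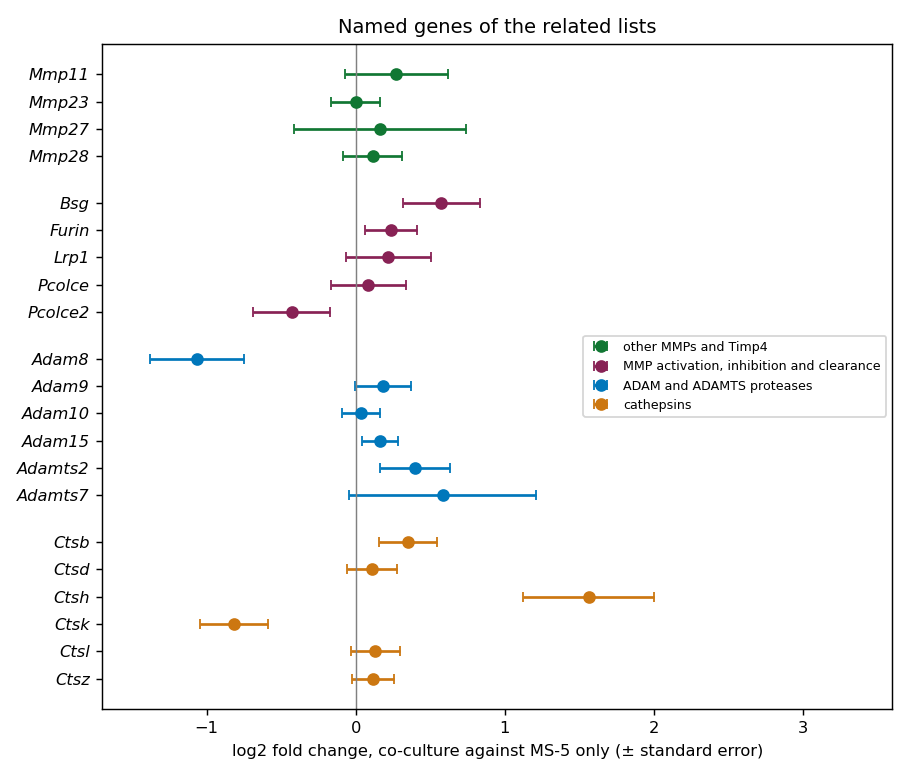
Log2 fold change of co-culture against MS-5 only, with its standard error, for the named genes of the 4 lists of related genes, coloured by list. Ctsh (1.56) lies farthest to the right and Adam8 (-1.06) and Ctsk (-0.82) farthest to the left, and none passed the test in the comparison of the 2 groups.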

How the data were processed

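Stranded mRNA libraries, per the methods, were sequenced from MS-5 cells with and without SKM-1 cells. The authors quantified the reads with kallisto 0.43.0 against a mouse GRCm38 transcript index and deposited, for each transcript, estimated counts with no normalization between libraries and TPM values scaled by effective length. The deposited transcript lengths and effective lengths (other values, in bases) served the length offset alone. Of 118489 transcripts, 116728 matched GENCODE M21 by version and length, and the other 1761, with 0.476% to 0.562% of a library's counts, were left out.

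Per gene, estimated counts were added and rounded. The groups were compared by edgeR 4.0.16 (R 4.3.3) with filterByExpr, TMM factors of 0.923 to 1.17 and Benjamini-Hochberg adjustment over all 13221 genes tested. Standard errors are fold changes (log2) over the square root of F. The comparison was tested on simulated data.

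Alternatives were DESeq2 1.42.0, limma 3.58.1 on log2(TPM + 0.5), or 0.1 or 1 in place of 0.5, other size factors and filters, an effective length offset, the replicate number as a block, a term that marks MO2 and MC3, leaving out each library, and a threshold of 0.05. The term marks libraries that were picked from values of these same data. Leaving out MO2 and MC3, and leaving out Timp3-203, were added after the values were seen.

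The genes and lists were chosen with earlier results of these data known. The named genes are the 10 listed genes and, in each related list, every gene past the threshold and the 4 of highest mean TPM. A further gene written into these lists was left out and is not reported here. Those named after their values were seen are marked so. Shared words of 31 bases were counted over the GENCODE M21 transcripts matched, and promoter windows are from RefSeq. Coordinates of genes are those of GENCODE M21. Sleuth, which the study used, was not run.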

Additional observations from a re-analysis of the deposited data

How the results depend on the processing

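Of 523 fold changes of 29 named genes of the MMP, TIMP and related lists under an alternative, 470 kept their direction and side of the threshold, 20 newly passed it and 33 changed sign. No named gene had passed it to begin with. The sign held under every alternative run for 17 of the 29 genes. The number of MMP and TIMP genes called was 1, Timp3, by limma on log2(TPM + 0.5) and with the effective length offset, and 0 under the other alternatives for which genes were counted. With the other pseudocounts limma also called Timp3 (adjusted p = 0.0389 at 0.1 and 0.0995 at 1). Of the related genes (41 tested in the main fit), 3 were called by DESeq2's Wald test, 1 (Adam8) with the length offset, 7 with the term for MO2 and MC3 and 4 without MO2 and MC3, and 0 when 1 library was left out. Over all genes the number was 579 of 13221 (491 higher), 1268 (910 higher) by DESeq2's Wald test, 356 (339 higher) by limma, 3999 (30.2%, 1835 higher) with the term, 1702 of 13047 (1087 higher) without MO2 and MC3, 2 at a threshold of 0.05, and 0 to 549 with 1 library left out (0 without MO1, MO2 or MO3, 283 without MC1, 281 without MC2 and 549 without MC3). The causes were not tested.

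Sign changes were of small values, apart from that of Timp3 without Timp3-203 (-2.21). Mmp14 was at 0.0046, 0.0047 and 0.0045 by limma with pseudocounts of 0.5, 0.1 and 1, and at 0.031 without MO2 and MC3, where Timp2 was at 0.021. Mmp23, at -0.00016, was at 0.012 with DESeq2's size factors, 0.012 by its Wald test, 0.018, 0.019 and 0.018 by limma with pseudocounts of 0.5, 0.1 and 1, 0.012 with the length offset and 0.065 without MO2 and MC3. With 1 library left out, log2 fold changes ranged from -0.18 to 0.41 for Mmp9, -0.18 to 0.17 for Mmp14, -0.014 to 0.30 for Mmp19, -0.50 to 0.11 for Timp1, -0.095 to 0.062 for Timp2, -0.060 to 0.59 for Mmp11, -0.080 to 0.13 for Mmp23, -0.18 to 0.41 for Mmp27, -0.028 to 0.27 for Mmp28, -0.0033 to 1.46 for Adamts7 and -0.047 to 0.23 for Pcolce. They kept their sign for Mmp2 (0.20 to 0.38), Mmp13 (0.21 to 1.25) and Timp3 (0.56 to 1.45), and also for Lrp1 (0.028 to 0.44), Adam9 (0.075 to 0.33), Adamts2 (0.21 to 0.64), Ctsd (0.028 to 0.17), Adam10 (0.0058 to 0.091), Furin (0.14 to 0.41), Ctsl (0.080 to 0.20), Ctsz (0.077 to 0.18) and Pcolce2 (-0.61 to -0.21), which moved by over 1.5 times.

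With the replicate number as a block, 444 genes were called (443 higher), with 0 MMP or TIMP genes and 0 related genes, and Mmp23 was at 0.0093. Deviations from the group means did not pair the same numbers, with correlations across genes of 0.53 for MO1 and MC1, -0.29 for MO2 and MC2 and -0.52 for MO3 and MC3, against 0.73 for MO2 and MC3.

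The low counts of Timp3, Mmp3, Mmp10 and Mmp27 limit what can be said of them.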
